A study of Mus musculus with 3 samples.

Results

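Matricellular proteins are secreted into the matrix around cells and act on adhesion, growth factor access and cell shape more than as a scaffold. TGF-beta, whose receptors activate Smad3 to enter the nucleus and bind DNA, is a textbook inducer of several of their genes, and in the embryonic cortex such proteins surround the dividing radial glia. The 7 genes described here are Ctgf and Cyr61 (CCN proteins), Thbs1 and Thbs2 (thrombospondins), Tnc (tenascin C), Fn1 (fibronectin) and Sparc. They were given by name as known TGF-beta targets of this class, and fibronectin, a structural glycoprotein, was counted with them. A peak was taken when it listed 1 of the 7 as its closest gene or when its midpoint lay within 50 kb of that gene's transcription start site (TSS). This gave 161 of 98086 Smad3 peaks and 110 of 63154 JMJD3 peaks, for 7 of the 16428 genes named in the lists.

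The lists come from chromatin immunoprecipitation with sequencing (ChIP-seq) of Smad3 and of JMJD3, a histone H3 lysine 27 demethylase encoded by Kdm6b. The labels describe wild-type mouse neural stem cells from the cerebral cortex of E12.5 embryos, kept dividing with EGF at 20 ng/ml and FGF at 10 ng/ml. All libraries carried TGFb at 5 ng/ml, and the lists cannot tell what TGFb changed. For the Smad3 and JMJD3 libraries it was given for 30 minutes according to the series text, and no time was recorded for the input. There was 1 Smad3 library, 1 JMJD3 library and 1 input library, which was not used here. No value has a replicate error or a p-value.

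The lists hold positions without heights or read numbers, so the depth behind a peak is unknown. Strength was approximated by the width of a region, made by joining peaks of the same list at most 10 bp apart. Of 10 neural stem cell marker genes, 10 had a Smad3 peak and 9 a JMJD3 peak centred within 1 kb of the TSS. The counts were 3 and 2 of 6 for neuronal markers, 2 and 1 of 8 for fibroblast and mesenchymal markers, 1 and 1 of 6 for endothelial markers, and 1 and 0 of 6 for microglial markers. Of all coding genes, 55.0% had such a Smad3 peak and 43.3% such a JMJD3 peak. No peak named 2 of the endothelial and 1 of the microglial markers as its closest gene, and these were counted as without. Hes1, Notch1, Nes and Fabp7 were among the stem cell genes with both, while Msi1 had Smad3 without JMJD3. The mesenchymal Prrx1 and the endothelial Kdr also had both, and the mesenchymal Col1a1 had Smad3 without JMJD3. The mesenchymal Col3a1 and the endothelial Pecam1 were among those with neither. Binding at a marker is not its expression, and the part of other cell types in the peaks at the 7 genes was not tested.

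At the promoters, 6 of the 7 genes had both factors and Thbs2 had neither. The 6 were Cyr61, Ctgf, Thbs1, Tnc, Fn1 and Sparc, each with a Smad3 and a JMJD3 peak centred within 1 kb of the TSS. Among 20949 coding genes, 55.0% had a Smad3 promoter peak, 43.3% a JMJD3 promoter peak and 41.9% both. Among the 15350 coding genes that were closest to at least 1 peak, which all 7 are, the shares were 75.1%, 59.1% and 57.2%. The count of 6 of 7 lies above each of these shares. The genes were picked as known targets, with earlier results of these data known, so the count is no independent excess. No test was made.

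**Figure D1:**
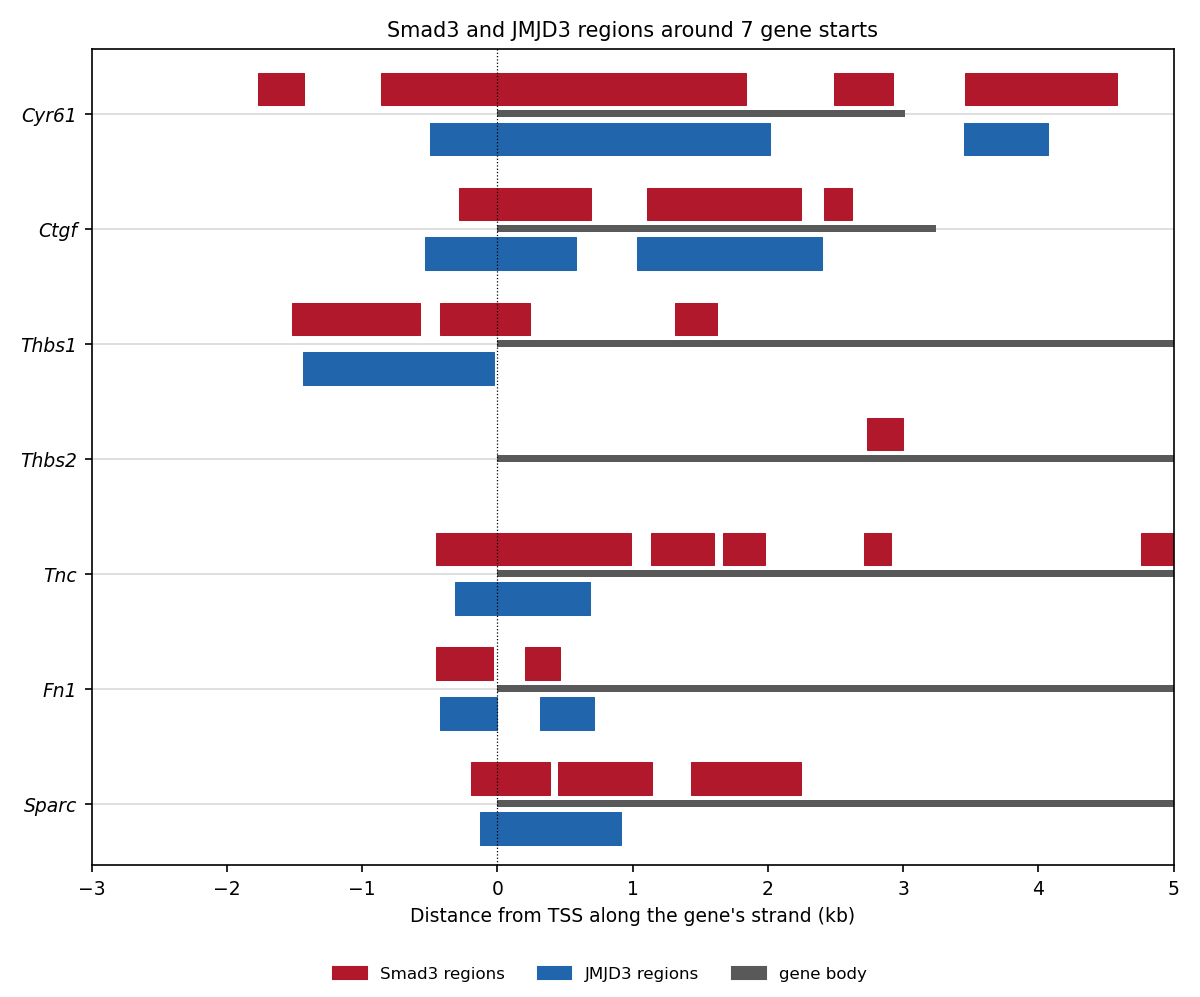
Smad3 regions (red, above) and JMJD3 regions (blue, below) from 3 kb upstream to 5 kb downstream of each TSS, with distance along the gene's own strand in kb and the gene body in grey. Of the 7 genes, 6 carry regions of both factors within 1 kb of the TSS, and Thbs2 shows a single Smad3 region 2864 bp inside the gene.

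Promoter sequences are shown for Cyr61, the gene with the widest regions of both factors when peaks up to 10 bp apart are joined, for Sparc, with narrower ones, and for Thbs2, with none. They run from 250 bases before to 50 bases after the RefSeq start on GRCm38.p6, a later build than the mm9 of the peaks, so peak positions cannot be placed on them base by base. Matching on Entrez ID found 4 of the 7 genes, namely Cyr61 (listed there as Ccn1), Thbs2, Tnc and Sparc. On that build the windows are chr3:145649936-145650235 for Cyr61, chr11:55420031-55420330 for Sparc and chr17:14694213-14694512 for Thbs2, each read on the minus strand. Capitals mark matches, on either strand, to the letters CAGAC (a Smad box), GTCTAGAC (its palindrome), TGANTCA (AP-1), GGAATG (TEAD), GGGCGG (a GC box) and TATAAA, and to the CArG box of serum response factor.
Cyr61: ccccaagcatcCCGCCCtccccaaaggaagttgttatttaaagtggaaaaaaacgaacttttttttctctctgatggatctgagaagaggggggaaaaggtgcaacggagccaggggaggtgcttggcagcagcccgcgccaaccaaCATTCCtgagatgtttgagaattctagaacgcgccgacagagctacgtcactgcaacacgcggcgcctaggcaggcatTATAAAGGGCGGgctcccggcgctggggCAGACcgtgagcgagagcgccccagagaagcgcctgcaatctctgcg
Sparc: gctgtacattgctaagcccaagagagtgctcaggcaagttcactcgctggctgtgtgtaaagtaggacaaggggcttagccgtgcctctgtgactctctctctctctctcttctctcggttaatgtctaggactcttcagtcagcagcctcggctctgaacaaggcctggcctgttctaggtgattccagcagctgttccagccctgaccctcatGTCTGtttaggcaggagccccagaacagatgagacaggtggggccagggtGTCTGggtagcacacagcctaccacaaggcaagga
Thbs2: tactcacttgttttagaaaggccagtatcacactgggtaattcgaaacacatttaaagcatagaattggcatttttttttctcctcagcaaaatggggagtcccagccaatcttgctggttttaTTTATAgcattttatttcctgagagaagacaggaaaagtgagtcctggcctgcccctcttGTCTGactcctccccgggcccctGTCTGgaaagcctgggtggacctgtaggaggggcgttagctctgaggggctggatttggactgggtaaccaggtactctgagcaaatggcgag
Cyr61 held 5 matches, more than Sparc with 2 or Thbs2 with 3. Its TATAAA began 25 bases before the start and overlapped no other motif, with a GGGCGG directly after it, and its GGAATG, the element of the YAP partner TEAD, lay on the opposite strand 103 bases before the start. CAGAC was present in all 3, on the strand of the gene 4 bases into Cyr61 and on the opposite strand in Sparc and Thbs2. It is common, with a match in 49.6% of 32851 RefSeq promoters of this length, against 14.7% for GGAATG, 13.6% for TATAAA, 35.7% for GGGCGG, 7.81% for TGANTCA, 1.63% for the CArG box and 0.213% for GTCTAGAC. The sequence of Thbs2, with no promoter peak, thus held 2 matches to CAGAC, as did that of Sparc, and GTCTAGAC, TGANTCA and the CArG box matched none of the 3. Tnc has a pair of RefSeq starts, and the window of each held 1 match to TATAAA, 1 match to GGGCGG and at least 1 match to CAGAC.

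Cyr61 (Entrez 16007, chr3:145309934-145312949 on mm9, minus strand) encodes CCN1, an integrin ligand that cells make within minutes of growth factor or TGF-beta exposure. A Smad3 region of 2701 bp made of 7 peaks ran from 862 bp upstream to 1838 bp downstream of the TSS. A JMJD3 region of 2520 bp made of 4 peaks ran from 501 bp upstream to 2018 bp downstream. Both thus covered the TSS and more than the first 1.8 kb of a gene of 3016 bp. The Smad3 region was at least as wide as those of 99.6% of the 11522 coding genes with a Smad3 promoter peak, and the JMJD3 region as those of 99.4% of the 9074 with a JMJD3 promoter peak. Of the bases in the Smad3 region 86.6% lay in the JMJD3 region, and 92.9% the other way round.

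Around Cyr61 the 2 lists also held the most regions of the 7 genes. Within 50 kb of its TSS lay 18 Smad3 regions and 12 JMJD3 regions. Of the Smad3 regions 11 overlapped JMJD3, and of the JMJD3 regions 11 overlapped Smad3, against 55.0% of all Smad3 regions and 81.7% of all JMJD3 regions. The regions covered 12.2% of the window for Smad3 and 10.1% for JMJD3. They lay on both sides, with shared pairs upstream (3.5, 7.3, 22.0, 31.6, 41.1 and 42.3 kb for Smad3) and past the gene end (4.0, 8.7, 26.7 and 35.2 kb from the TSS). No Smad3 or JMJD3 peak in this window was listed under another gene.

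Ctgf (Entrez 14219, chr10:24315247-24318488, plus strand) encodes CCN2, a CCN protein that acts with TGF-beta in matrix production. Its promoter regions were 981 bp for Smad3 and 1120 bp for JMJD3, narrower than those of Cyr61 at this joining distance. The order turned without joining, with 751 and 1120 bp at Ctgf and 651 and 920 bp at Cyr61, and with peaks up to 500 bp apart joined, with 2910 and 2940 bp at Ctgf and 2701 and 2520 bp at Cyr61. The Smad3 region ran from 286 bp upstream to 694 bp downstream of the TSS, and the JMJD3 region from 536 bp upstream to 583 bp downstream. They ranked at 72.6% and 75.4% of coding genes with a promoter peak of the factor, counted from the narrowest.

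A second pair of wide regions lay inside Ctgf. A Smad3 region of 1141 bp, made of 4 peaks, ran from 1104 to 2244 bp downstream of the TSS and lay wholly within a JMJD3 region of 1370 bp, from 1034 to 2403 bp. This JMJD3 region was wider than the one at the Ctgf promoter. Within 50 kb, 4 of 9 Smad3 regions overlapped JMJD3, against 55.0% of all Smad3 regions. All 4 JMJD3 regions overlapped Smad3, against 81.7% of all JMJD3 regions. The Smad3 regions without JMJD3 were narrow, from 210 to 431 bp, and lay 4.2 kb upstream, 2.5 kb into the gene, and 27.2, 29.9 and 35.4 kb downstream of the TSS.

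**Figure D2:**
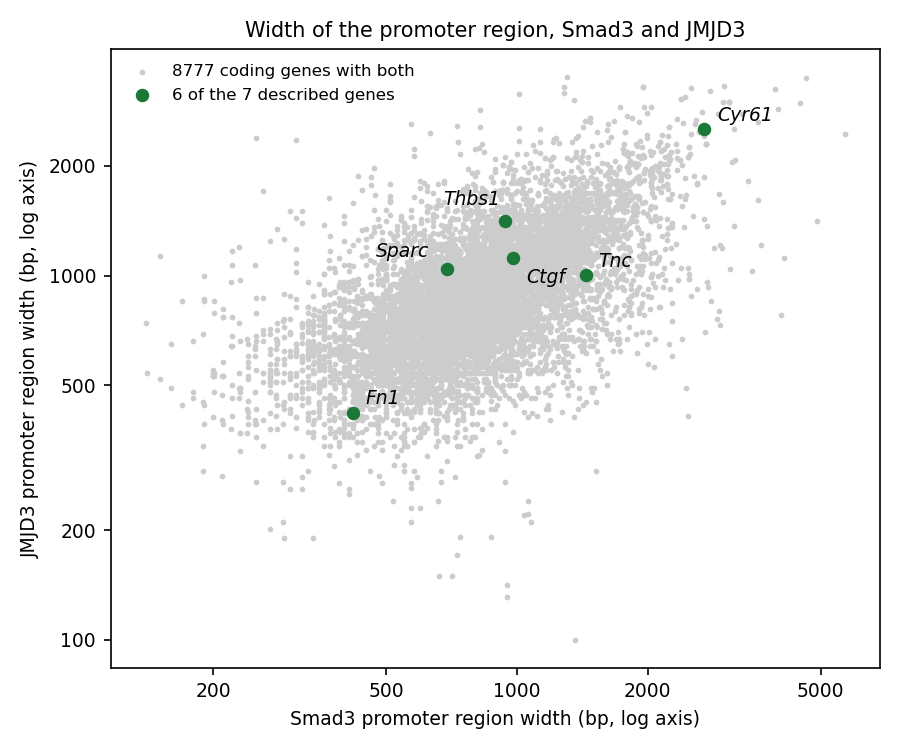
Width of the widest Smad3 promoter region (horizontal, bp, log axis) against that of the widest JMJD3 promoter region (vertical, bp, log axis) for 8777 coding genes with both (grey) and for 6 of the 7 genes (green). Cyr61 sits near the upper right end with 2701 bp and 2520 bp, Fn1 near the lower left with 420 bp for each factor, and the others lie between.

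Thbs1 (Entrez 21825, chr2:117937657-117952869, plus strand) and Thbs2 (Entrez 21826, chr17:14802506-14831269, minus strand) encode thrombospondins, of which thrombospondin 1 releases latent TGF-beta into its active form and both limit blood vessel growth. The pair differed at the promoter. At Thbs1 a Smad3 region of 941 bp ended 576 bp upstream of the TSS, and a further Smad3 region of 670 bp ran from 426 bp upstream to 243 bp downstream. A single JMJD3 region of 1410 bp ran from 1436 to 27 bp upstream, across the gap between them, and was at least as wide as those of 89.5% of coding genes with a JMJD3 promoter peak. The listed JMJD3 region thus ended just short of the annotated start, on the upstream side, whereas a listed Smad3 region crossed it. Peak edges from 1 library per antibody, without heights, do not show where binding itself ends.

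Thbs2 had its nearest Smad3 peak 2864 bp downstream of the TSS, a region of 270 bp with no JMJD3 overlap. Its nearest JMJD3 region, 8.7 kb upstream, was 460 bp wide and overlapped a Smad3 region of 400 bp. Further shared pairs stood 24.6 kb upstream and 21.7 and 46.1 kb downstream of the TSS, measured on Smad3. The pair 24.6 kb upstream differed most in width, with 321 bp for Smad3 lying wholly in 1000 bp for JMJD3. In total Thbs2 had 6 Smad3 and 5 JMJD3 regions within 50 kb, and Thbs1 had 6 and 3. Smad3 covered 2442 bp and JMJD3 3394 bp around Thbs2, a ratio of 0.72, whereas around Thbs1 they covered 3501 bp and 2970 bp, a ratio of 1.18.

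Tnc (Entrez 21923, chr4:63620818-63708049, minus strand) encodes tenascin C, a large matrix protein of the cortical germinal zone that is known to influence how neural stem cells respond to growth factors. Smad3 covered its TSS with a region of 1440 bp, from 451 bp upstream to 988 bp downstream. JMJD3 covered it with 1001 bp, from 312 bp upstream to 688 bp downstream, all of it within the Smad3 region. The Smad3 region was at least as wide as 92.4% of those at other coding genes, and the JMJD3 region as 65.9%. Beyond the promoter, 4 Smad3 regions of 200 to 461 bp continued up to 4.9 kb into the gene with no JMJD3 overlap.

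Tnc also had shared regions inside the gene and in an upstream group. Regions centred 44.6 and 43.3 kb downstream of the TSS, within the gene, were each 811 bp for Smad3, with JMJD3 regions of 1070 and 1160 bp over 97.5% and 86.4% of their bases. Upstream, at 27.9, 29.5 and 31.3 kb, Smad3 regions of 970, 471 and 720 bp were covered at 93.8%, 100% and 98.6% of their bases by JMJD3 regions of 1010, 821 and 770 bp. Within 50 kb, 8 of 13 Smad3 and 8 of 9 JMJD3 regions overlapped the other factor, against 55.0% and 81.7% of all regions.

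Fn1 (Entrez 14268, chr1:71632096-71699745, minus strand) encodes fibronectin, a ligand of integrins and a standard marker of the mesenchymal response to TGF-beta. It had the narrowest promoter regions of the 6 genes, except that with peaks up to 500 bp apart joined its JMJD3 region, 1140 bp, was wider than those of Tnc (1001 bp) and Sparc (1040 bp). Smad3 was listed in regions of 420 bp upstream and 261 bp downstream of the TSS, and JMJD3 in regions of 420 and 400 bp. The gap between them held the TSS itself for both factors, from 36 bp upstream to 204 bp downstream for Smad3 and from 6 bp upstream to 315 bp downstream for JMJD3. At 420 bp each, the widest regions ranked at 12.8% of coding genes with a Smad3 promoter peak and at 3.33% of those with a JMJD3 promoter peak.

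Fn1 was also the gene with the fewest Smad3 regions within 50 kb, 5, next to 4 JMJD3 regions. A pair of Smad3 regions of 341 and 261 bp, 38.0 and 38.5 kb into the gene, lay wholly within a JMJD3 region of 921 bp. Smad3 covered 1653 bp of the window and JMJD3 1971 bp, ranking at 28.5% and 41.9% of coding genes. An upstream Smad3 region of 290 bp, 111 kb from the TSS, lay wholly within a JMJD3 region of 640 bp, while the Smad3 region 20.5 kb upstream and the JMJD3 region 27.4 kb upstream did not.

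Sparc (Entrez 20692, chr11:55208002-55233582, minus strand) encodes a collagen-binding glycoprotein also known as osteonectin. Its TSS lay in a Smad3 region of 590 bp, from 198 bp upstream to 391 bp downstream, followed by a further one of 691 bp. JMJD3 joined both in a single region of 1040 bp, from 128 bp upstream to 911 bp downstream. A further Smad3 region of 811 bp, made of 4 peaks and centred 1.8 kb into the gene, had no JMJD3 overlap. A Smad3 region of 1130 bp was centred 3.9 kb upstream of the TSS and held all of a JMJD3 region of 800 bp. A shared pair 8.2 kb upstream measured 711 bp for Smad3 and 701 bp for JMJD3.

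Sparc was the 1 gene of the 7 whose window held the start of another gene named in the lists. Atox1, a copper chaperone gene, starts 41.1 kb upstream of it and G3bp1, a stress granule protein gene, 49.7 kb upstream. Of the 18 Smad3 peaks within 50 kb of Sparc, 5 named Atox1 or G3bp1, as did 5 of the 15 JMJD3 peaks. The counts for Sparc, 14 Smad3 and 11 JMJD3 regions, include these. The widest JMJD3 region in its window, 1350 bp at 49.3 kb upstream, was 1 of them. The JMJD3 list held 4 regions near Sparc with no Smad3 overlap, more than near any other of the 7 genes within 50 kb. They lay 5.6 and 14.0 kb into the gene and 13.2 and 18.1 kb upstream, from 291 to 511 bp wide. The other 7 of the 11 overlapped Smad3, against 81.7% of all JMJD3 regions.

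**Figure D3:**
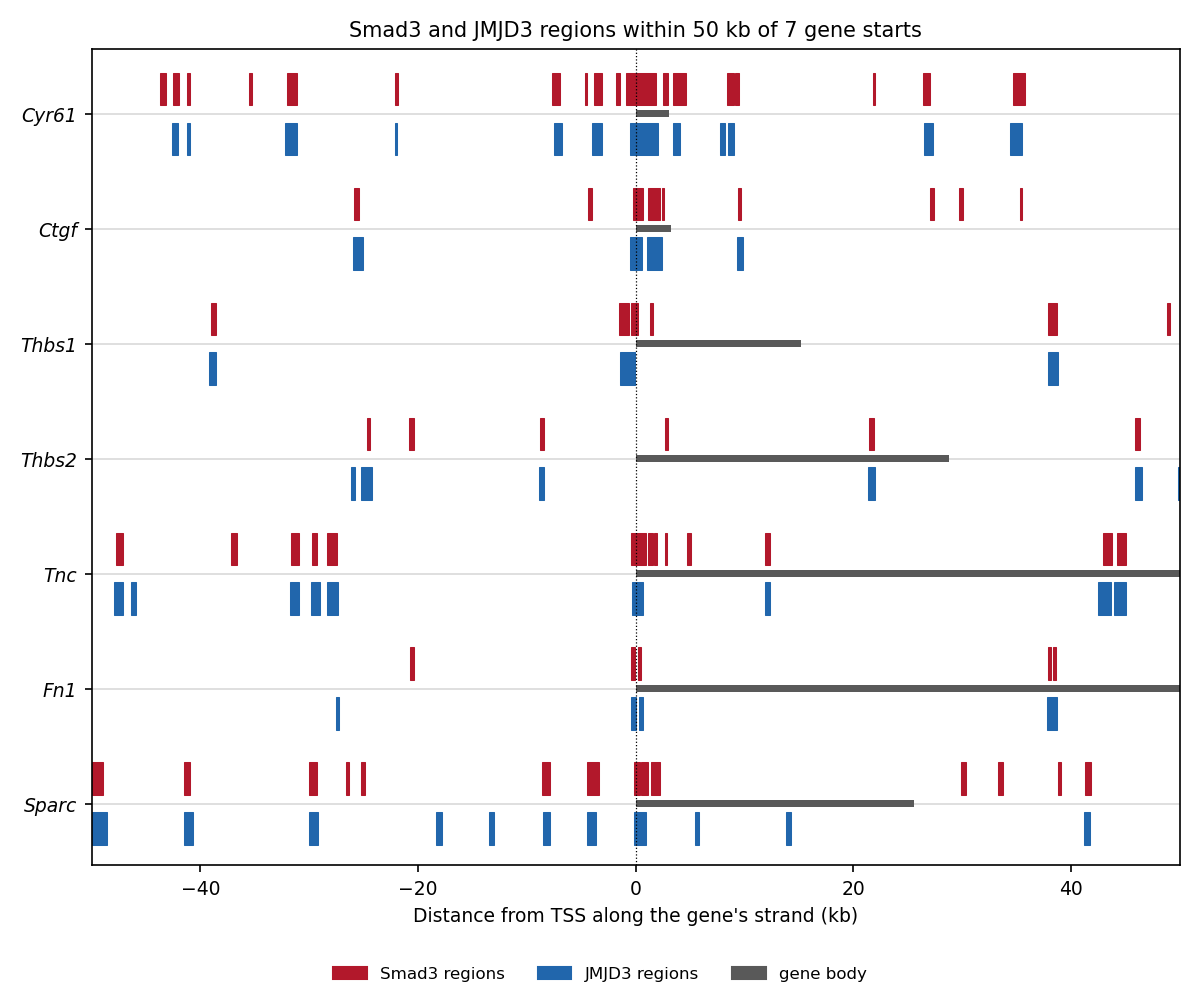
Smad3 regions (red, above) and JMJD3 regions (blue, below) within 50 kb of each TSS, with distance along the gene's strand in kb and the gene body in grey. Cyr61 carries 18 Smad3 and 12 JMJD3 regions on both sides of the gene, and Fn1 carries 5 and 4.

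The order of the genes by number of regions within 50 kb was similar for the 2 antibodies at the top and not at the bottom. For Smad3 it ran from Cyr61 (18) through Sparc (14), Tnc (13), Ctgf (9), Thbs1 and Thbs2 (6 each) to Fn1 (5). For JMJD3 it ran from Cyr61 (12) through Sparc (11), Tnc (9), Thbs2 (5), Ctgf and Fn1 (4 each) to Thbs1 (3). With 1 library per antibody, neighbours in either order cannot be told apart. The median over the 7 genes was 9 Smad3 and 5 JMJD3 regions, against 5 and 3 over the 15350 coding genes in the lists. The interquartile range of the coding genes, 3 to 9 for Smad3 and 2 to 5 for JMJD3, reached up to the medians of the 7. Cyr61, Sparc and Tnc lay above it for both factors, and no gene of the 7 lay below it. The Sparc counts include regions listed under Atox1 or G3bp1. Its place ahead of Tnc in both orders, and above the range for Smad3, rests on those regions. Peaks listed under the gene gave a larger gap, with a median of 17 Smad3 and 11 JMJD3 peaks per gene, against 3 and 2. This count has no distance limit, so it also depends on how far away the neighbouring genes start. It takes in 59 Smad3 and 42 JMJD3 peaks beyond 50 kb at the 7 genes, and the effect of gene spacing was not tested.

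**Figure D4:**
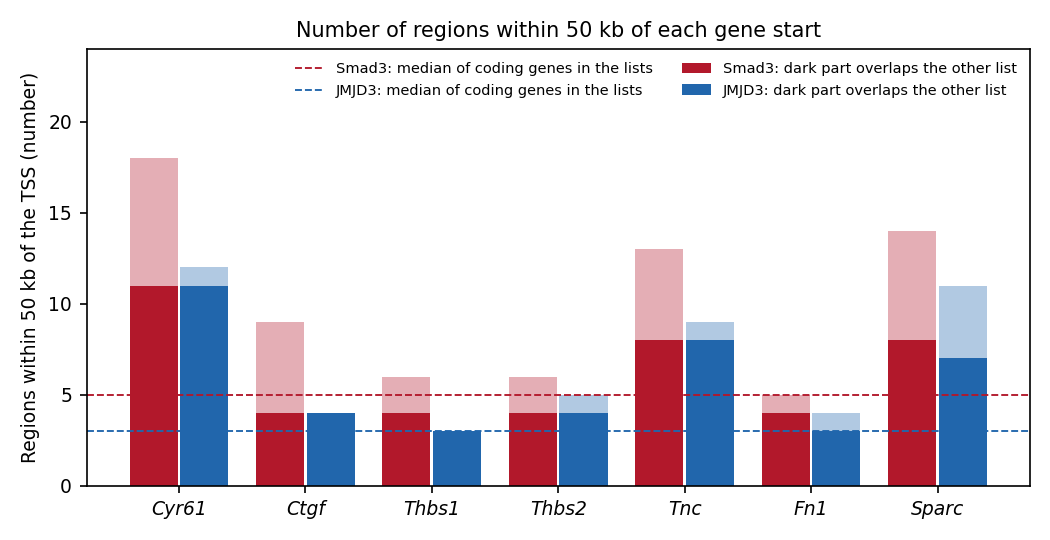
Number of Smad3 (red) and JMJD3 (blue) regions within 50 kb of each TSS, with the darker part of each bar overlapping a region of the other list and dashed lines at the medians of 15350 coding genes, 5 for Smad3 and 3 for JMJD3. Cyr61, Tnc and Sparc stand well above the lines, with 18, 13 and 14 Smad3 regions. The bars of Sparc include regions listed under Atox1 or G3bp1.

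Smad3 and JMJD3 shared peaks around the 7 genes about as often as over the whole lists. Of the 161 Smad3 peaks 100 overlapped JMJD3 by at least 1 bp (62.1%, 95% Clopper-Pearson interval 54.1 to 69.6), against 60.2% of all Smad3 peaks. Of the 110 JMJD3 peaks 88 overlapped Smad3 (80.0%, 71.3 to 87.0), against 81.4% of all JMJD3 peaks. Both intervals contain the share of the whole list, and adjacent peaks are not independent, so the intervals cover counting error and are too narrow. At promoters, 15 of 16 Smad3 peaks and 12 of 12 JMJD3 peaks overlapped the other factor, against 70.9% and 93.4% of all peaks within 1 kb of a TSS. The promoter peak without overlap was the outermost Smad3 peak upstream of the Cyr61 TSS.

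Shared peaks within 50 kb were also counted away from the promoters of the 7 genes. They were 25 of 36 upstream, 14 of 27 in the gene body and 12 of 23 past the gene end for Smad3. For JMJD3 they were 23 of 30, 10 of 13 and 11 of 13. The upstream counts take in peaks listed under Atox1 or G3bp1, 5 for each factor, some of them near the starts of those genes. Over all peaks at any place, promoters included, the shares were 60.2% for Smad3 and 81.4% for JMJD3. A difference between the places was not tested. Shared regions of the 7 genes were wider than the others, with a median of 590 bp against 380 bp for Smad3 and 770 bp against 450 bp for JMJD3. The same medians over all regions were 600 bp and 351 bp for Smad3 and 710 bp and 450 bp for JMJD3. By bases, between 58.7% (Sparc) and 70.6% (Thbs1) of the Smad3 sequence in a window was also in JMJD3 regions. The range was 47.8% (Thbs2) to 83.2% (Thbs1) for JMJD3 sequence in Smad3 regions.

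Beyond 50 kb, 59 Smad3 and 42 JMJD3 peaks still listed 1 of the 7 as the closest gene, and most lay upstream of Tnc, Ctgf and Thbs1. Tnc had 19 Smad3 regions there and 19 JMJD3 regions, reaching 451 kb upstream. Of these, 14 and 15 overlapped the other factor, against 55.0% and 81.7% of all regions. On Smad3, the shared places stood 95.6, 99.0, 102, 154, 178, 185, 228, 236, 260, 282.8, 283.4, 405, 437 and 451 kb upstream. The widest were a Smad3 region of 1080 bp centred 99.0 kb upstream and a JMJD3 region of 1350 bp centred 228 kb upstream. The name of the closest gene is given by distance alone, and a link of these regions to Tnc was not tested.

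Ctgf had 13 remote Smad3 regions, up to 185 kb upstream, of which 6 overlapped JMJD3, and 6 remote JMJD3 regions, all of which overlapped Smad3. The widest pair, 1180 bp for Smad3 and 1210 bp for JMJD3, stood 150 kb upstream. Thbs1 had 9 remote Smad3 regions, 2 of them shared, and 4 remote JMJD3 regions, 2 of them shared. Its shared pairs stood 307 and 249 kb upstream. Over all regions, 55.0% of Smad3 and 81.7% of JMJD3 regions overlapped the other factor. The share with JMJD3 among remote Smad3 regions was 14 of 19 at Tnc, 6 of 13 at Ctgf and 2 of 9 at Thbs1. This describes 1 library each, and a difference between the genes was not tested. Thbs2 had 5 remote Smad3 regions and 3 remote JMJD3 regions, and Cyr61 and Fn1 at most 2 for each factor. At the edge of the 50 kb window, the outermost JMJD3 peak inside it stood 49.9 kb from the Thbs2 TSS, and the nearest peaks outside it, 1 Smad3 and 1 JMJD3, both stood 50.2 kb from the same TSS.

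**Figure D5:**
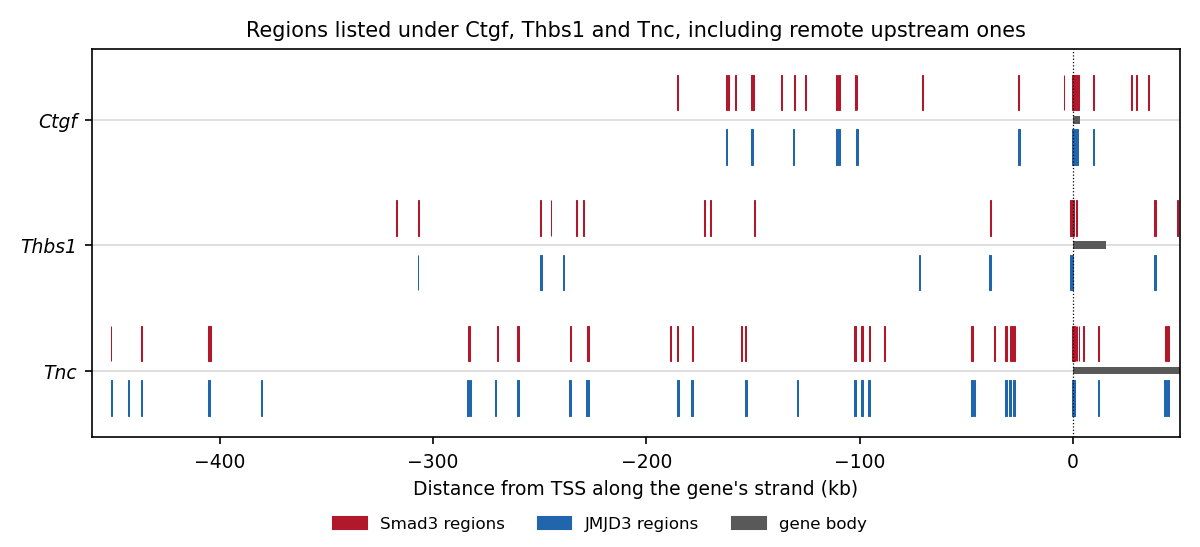
Smad3 regions (red, above) and JMJD3 regions (blue, below) listed under Ctgf, Thbs1 and Tnc, from 460 kb upstream to 50 kb downstream of each TSS, with distance in kb and the gene body in grey. Tnc has 19 regions of each factor more than 50 kb upstream, 14 and 15 of them overlapping the other factor, and Thbs1 has 9 and 4, with 2 of each overlapping. Over all regions, 55.0% of Smad3 and 81.7% of JMJD3 regions overlap the other factor.

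Among 65 related genes, the receptors and the matrix genes were counted apart. Of 18 genes for cell surface receptors of matricellular proteins, 17 had a Smad3 and 14 a JMJD3 promoter peak (94.4% and 77.8%). Of the 47 others, 23 had Smad3 and 13 JMJD3 (48.9% and 27.7%), against 55.0% and 43.3% of coding genes. The difference between the groups was not tested. Of the 65, 26 had both, 14 Smad3 without JMJD3, 1 JMJD3 without Smad3 and 24 neither. The last number includes 5 genes that no peak named as the closest, for which the lists alone do not show whether they lacked peaks.

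The other CCN genes had 0 of 4 with JMJD3, with narrow Smad3 regions at Wisp1 (270 bp) and Wisp2 (230 bp). The other thrombospondin genes had 0 of 3 with JMJD3, with Smad3 at Thbs3 (771 bp) and at Comp (161 bp), the cartilage matrix member. Of the other tenascin genes Tnr, a tenascin of the nervous system, had a Smad3 region of 980 bp, and 0 of 3 had JMJD3. In the SPARC family both factors were listed at Sparcl1 (1020 bp for Smad3 and 1050 bp for JMJD3), Spock2 (580 and 1270 bp) and Fstl1 (600 and 471 bp), and Smoc1 had Smad3 alone at 241 bp. No peak named 2 of the 7 SPARC family genes, which were counted as without. Of all coding genes, 55.0% had Smad3, 43.3% JMJD3 and 41.9% both. With 3 to 7 genes per family, these are counts and not a tested difference from Cyr61, Ctgf, Thbs1, Tnc and Sparc.

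Other matricellular genes had both factors at 3 of 12 promoters (25.0%), against 41.9% of coding genes. No peak named 2 of the 12, which were counted as without. The promoters with both numbered 3. These were Lgals1, a secreted lectin gene, with 1720 bp for Smad3 and 1730 bp for JMJD3, Fbln1 (720 and 690 bp) and Fbln2 (521 and 590 bp), both fibulin genes. Tgfbi, named for its induction by TGF-beta, had a Smad3 region of 271 bp and Nid1, a basement membrane gene, a JMJD3 region of 281 bp. Of 18 matrix genes induced by TGF-beta in other cells, 10 had Smad3 (55.6%) and 6 both (33.3%), against 55.0% and 41.9% of coding genes. Hspg2 (1281 and 1630 bp), Lamc1 (1051 and 1111 bp) and Col5a1 (780 and 950 bp) had both, and Vcan (840 bp) and Col1a1 (501 bp) had Smad3 without JMJD3.

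Among the receptors, the integrin subunit genes Itgb8 and Itgb1 had wide regions of both factors, with 1880 and 1530 bp for Smad3 and 1980 and 1510 bp for JMJD3. Integrin beta 8 takes part in the activation of latent TGF-beta in the brain. Lrp1, an endocytic receptor of thrombospondins and CCN2, had 1310 bp for Smad3 and 1470 bp for JMJD3, and Cd47, a thrombospondin 1 receptor, 1231 and 1280 bp. Cd36, a further thrombospondin receptor, and Itga8 had Smad3 regions of 590 and 420 bp and no JMJD3 promoter peak.

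Genes most like each of the 7 were found by the distance over 4 percentiles (Smad3 and JMJD3 regions within 50 kb, Smad3 and JMJD3 promoter region width) across all 16428 named genes. For Cyr61 they were Sema4c and E2f1, at 1.01 and 1.24 percentile points, with 17 Smad3 regions each. For Ctgf they were Tada1 and Boc, for Thbs1 Trabd and Srsf6, and for Fn1 Tmem117 and Nhlrc1, all within 3.19 points. For Tnc they were Ap3m2 and Mafg, at 3.44 and 3.88 points, and Mta2 was the most like Sparc, at 3.84 points. Thbs2 was tied with Arntl2 and Ascl3 at a distance of 0, since genes with 6 Smad3 regions, 5 JMJD3 regions and no promoter peak cannot be told apart by this measure. Ties were taken in order of name, so other genes may be tied with Thbs2 as well. The measure rests on 1 library per antibody.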

How the data were processed

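The aligner Bowtie 0.12.7, the software CASAVA, the peak caller MACS 1.4 and the build mm9 appear in the submitters' processing notes. Their settings, thresholds and any use of the input library are not given in the sources used. The Smad3 and JMJD3 lists, 1 per antibody, give the position of each peak. Per the file headers they also give its signed distance in bp from the closest RefSeq TSS, with no score, height or read number. Coordinates are those of the lists (mm9, 1-based).

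Peaks of a list at most 10 bp apart were joined into regions, and overlap meant at least 1 shared bp. A gene had a promoter peak when a peak naming it was centred within 1 kb of its TSS, and the widest region holding such a peak gave its width. Region counts and covered bases used windows of 50 kb on each side. Percentages of coding genes used 20949 protein-coding genes of a RefSeq table (GRCm38.p6), matched on Entrez ID and not by coordinates. Shares carry exact Clopper-Pearson 95% intervals. With 1 library per antibody no test was made, and only the interval functions were tested on simulated data.

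The 7 genes, the related lists and the marker lists were chosen with earlier results of these data known. All 7 genes are named. From each related list the text names up to 4 genes with both factors, by the lower of their width percentiles, and up to 2 with 1 factor, by width, and for each of the 7 the 2 most similar genes, leaving out predicted genes and any within 100 kb. Some genes that this rule takes are not reported here. Marker genes named were chosen after their values were seen. Alternatives covered windows, overlap rules, joining distance, wider peaks and equal peak numbers. Python 3.11.15, pandas 2.3.3, SciPy 1.17.1 and matplotlib 3.10.9 were used.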

Additional observations from a re-analysis of the deposited data

How the results depend on the processing

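Smad3 was listed at 5 to 7 and JMJD3 at 5 to 6 of the 7 promoters with TSS windows of 0.5, 2.5 and 5 kb, any peak by coordinates, the wider 50% of peaks and equal numbers of peaks. The 7 came from the 5 kb window, which takes in the Smad3 peak inside Thbs2. Peak numbers of 161 for Smad3 and 110 for JMJD3 became 74 and 56 with the wider 50% of peaks, 101 for Smad3 with equal numbers of peaks, and 102 and 68 with peaks within 50 kb alone, an alternative added after the data were seen. All 3 keep fewer Smad3 peaks by construction. Sharing depended on the overlap rule and list length. The share of Smad3 peaks on JMJD3, 62.1%, was 38.5% with reciprocal overlap of 50%, 49.1% with midpoints within 200 bp, 70.3% with the wider 50% of peaks and 78.2% with equal numbers. The share of JMJD3 peaks on Smad3, 80.0%, was 56.4% with reciprocal overlap and 59.1% with equal numbers, so which factor had the larger share turned with equal numbers. Promoter widths depended on the joining distance. The 14 widths include those of Thbs2, which were 0 at each joining distance and could not move. Without joining, 5 of 14 widths moved by over 1.5 times, among them Cyr61 (651 bp for Smad3 and 920 bp for JMJD3), Thbs1 JMJD3 (601 bp) and Tnc Smad3 (731 bp), and Ctgf had 751 and 1120 bp. With peaks up to 500 bp apart joined 7 of 14 moved, among them Ctgf (2910 and 2940 bp), then wider than Cyr61 (2701 and 2520 bp), and Fn1 (920 and 1140 bp). Region counts within 50 kb depended on it less. Without joining 3 of 14 moved, namely Cyr61 Smad3 (18 to 34), Thbs1 JMJD3 (3 to 6) and Thbs2 JMJD3 (5 to 8). Ctgf, with 4, then had the fewest JMJD3 regions in place of Thbs1. With peaks up to 500 bp apart joined 1 moved, Fn1 Smad3 (5 to 3). The depth behind the lists is unknown, and the lists do not tell a missing peak from one below the caller's limit. No paired analysis was possible because each antibody has 1 library and no test was made.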
